A study of Mus musculus with 3 samples.

Results

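Meiotic entry and prophase genes were examined for contacts of MTR4, a helicase that unwinds RNA in the nucleus and feeds it to the exosome for decay or trimming. The genes were 39 named genes of meiotic entry, cohesin, the synaptonemal complex, break formation, recombination and related roles. A peak was assigned to a gene when its midpoint lay in the RefSeq gene body on mm10, and 16 of 15769 peaks were so assigned. These 16 peaks fell in 13 of the 39 genes, and the other 26 held none. The table lists Meiosin as Bhmg1 and Six6os1 as 4930447C04Rik.

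The peaks came from LACE-seq, which maps RNA held by a protein: ultraviolet light fixes the contacts, an antibody pulls the protein down, and cDNA ends report where it sat. The cells carried wild-type Mtr4 (labelled Mtr4WT), were taken from mouse testes on postnatal day 8, were sorted for KIT and were irradiated at 400 mJ. The labels describe 3 samples of this 1 group, name no other sorting marker, and give no control precipitation or input. Only 1 peak list was analysed, recorded under replicate 3, so no value below has a replicate check, and contacts cannot be told apart from background of abundant RNA. Each peak has a position and a sign; scores and read counts are lacking, and depth is therefore unknown.

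Meiosis begins when differentiating spermatogonia stop mitotic division and switch on a large set of germ cell genes. Cohesin rings and axis proteins then shape each chromosome, SPO11 cuts the DNA, and the cuts are repaired on the homologous chromosome while the synaptonemal complex holds both homologs together. KIT marks differentiating spermatogonia, the stage before this switch, and the series asks which RNAs MTR4 contacts there.

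The meiotic genes carried peaks about as often as other protein-coding genes of their length. A peak was found in 13 of 39 (33.3%, 95% Wilson interval 20.6 to 49), against 25.5% of all 21887 protein-coding genes. The meiotic genes are long, with a median gene body of 37.4 kb against 17.2 kb for all protein-coding genes. Protein-coding genes were therefore divided by length into 20 classes of equal number. If each meiotic gene carried a peak at the share of its own class, 13.1 of them would have one. Their 16 peaks amounted to 6.97 per Mb of gene body (95% exact Poisson interval 3.99 to 11.3), against 8.31 per Mb over all protein-coding gene bodies and 5.83 per Mb over the chromosomes. The mean peak number of each length class would give 20.6 peaks. In a pool of sorted cells, fewer contributing cells and less RNA per cell cannot be told apart, and expression was not measured in the list. Intervals cover counting error only.

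Meiotic genes with a peak were mostly the long ones. The 13 genes with a peak had a median length of 86.5 kb and the 26 without a median of 25.8 kb. None of the 8 genes of up to 20 kb held a peak, where 12.4% of protein-coding genes of that length did. These 8 were Meioc, Rec8, Sycp3, Syce1, Syce2, Tex12, Spo11 and Msh5, which together span 103 kb, and the class shares give 1.33 genes with a peak among them. Between 20 and 40 kb, 3 of 15 genes held a peak, against 26.0% of protein-coding genes, and from 40 to 80 kb it was 3 of 8 against 37.4%. Above 80 kb, 7 of 8 genes held a peak against 63.4%, and the class shares give 4.86. Neither the whole list nor the length groups were tested against the class shares, since the genes were chosen with earlier results known.

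**Figure D1:**
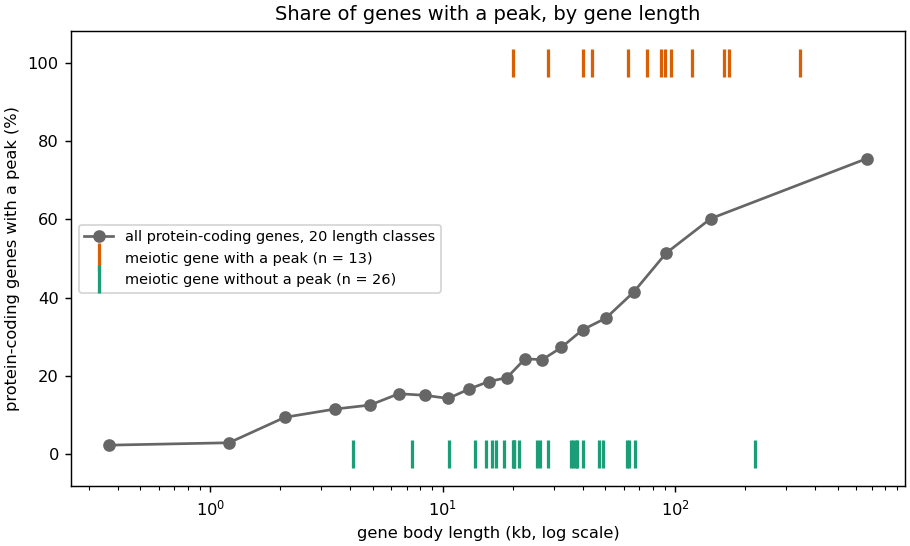
Share of protein-coding genes with at least 1 peak (vertical axis, percent) by gene body length (horizontal axis, kb, log scale) for 20 length classes. Ticks at the top mark the 13 meiotic genes with a peak and ticks at the bottom the 26 without; their median lengths are 86.5 kb and 25.8 kb.

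To ask whether any gene held more peaks than its position predicts, the number in each gene body was compared with gene length times peak density. The density was the higher of that of the chromosome and that within 500 kb on either side. A 1-sided exact Poisson test was run on 34614 protein-coding and long noncoding genes with Benjamini-Hochberg adjustment. Adjusted p was under 0.05 for 93 genes (0.269%), and 0 of the 39 meiotic genes were among them. The 26 meiotic genes without a peak could not pass. Among the 11 with 1 peak, the lowest unadjusted exact Poisson p was 0.152, for Spata22. Few of the 39 could therefore have passed. At an unadjusted p under 0.05, 1 meiotic gene passed, Stag3, against 3.42% of all genes tested. More peaks than expected were found in 10 of the 39 (25.6%), against 21.4% of protein-coding genes. The folds of the 13 genes with a peak ran from 0.436 for Mei4 to 10.9 for Stag3.

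**Figure D2:**
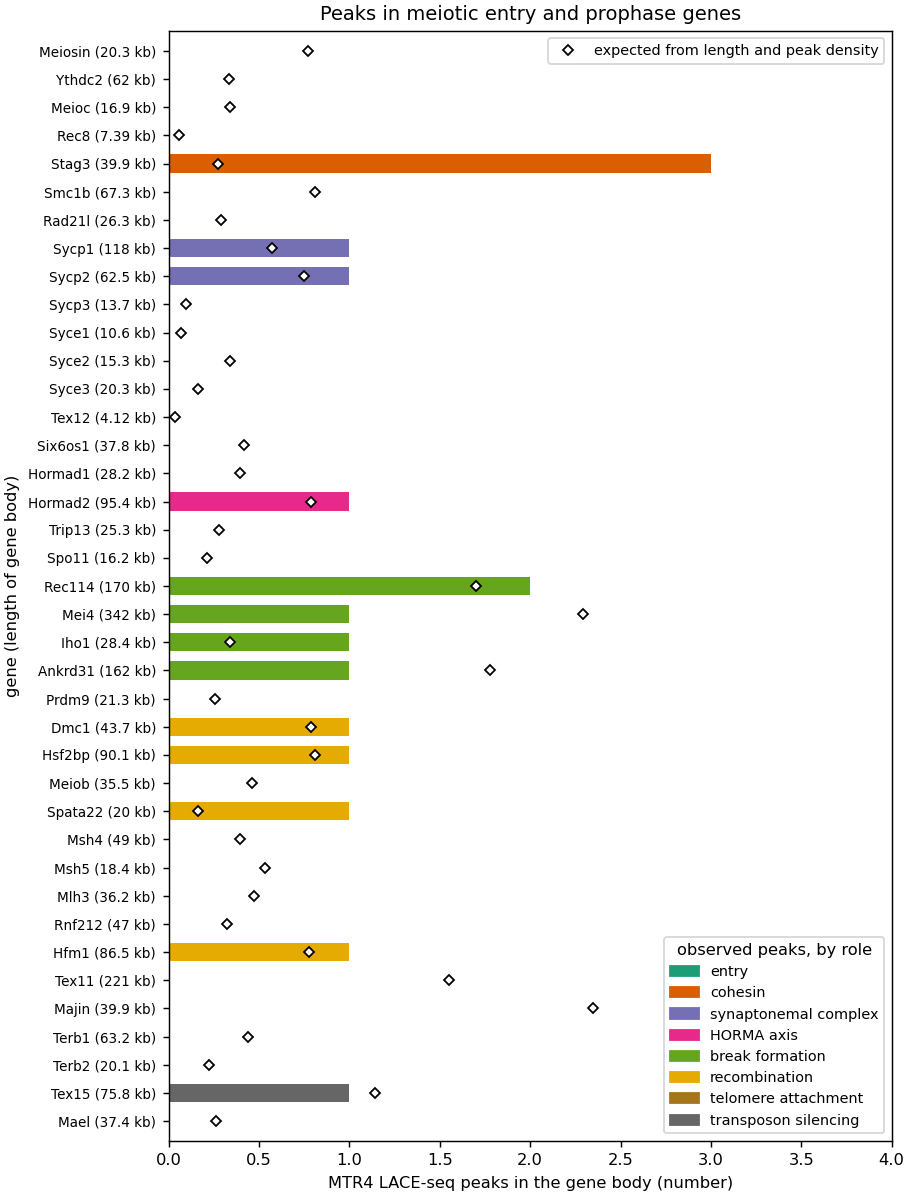
Number of peaks in each of the 39 gene bodies (bars, coloured by role) and number expected from length and peak density (diamonds); gene body length is given beside each name. Stag3 held 3 peaks and Rec114 2, the other 11 genes with a bar held 1, and Mei4, Ankrd31 and Tex15 held fewer than expected.

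None of the 3 genes of meiotic entry held a peak, where the class shares give 0.796 genes with a peak. Meiosin, the partner of STRA8 in switching on meiotic genes, held 0 peaks where 0.77 were expected. Ythdc2, an RNA helicase that helps end the mitotic programme, held 0 where 0.336 were expected, and its partner Meioc 0 where 0.338 were expected. Together the entry genes span 99.1 kb, and a count of 0 allows up to 30.3 peaks per Mb, so a density like that of other genes was not excluded at this depth. The nearest peak outside Meiosin lay 3.34 kb from its gene body, and the nearest to Ythdc2 lay 166 kb away.

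Of the 4 meiotic cohesin genes, 1 held peaks, Stag3, where the class shares give 1.12 genes with a peak. Stag3 (chromosome 5, 138272514 to 138312397, plus strand) encodes the cohesin subunit that all meiotic cohesin complexes carry. Its gene body of 39.9 kb held 3 peaks where 0.274 were expected (10.9-fold, 95% exact Poisson interval 2.25 to 31.9), with unadjusted exact Poisson p = 0.00281 and an adjusted value of p = 0.412 in the same exact test. Among protein-coding genes of its length class, 1.55% held 3 or more. However, the peaks at 138275681 to 138275700 and at 138279981 to 138280000 also lie in Gpc2, a gene on the minus strand that encodes the cell-surface proteoglycan glypican 2. Both lie upstream of the start that RefSeq's promoter table lists for Stag3, the first by 4818 nt and the second by 518 nt. The second is also 53 nt upstream of the listed start of Gpc2. The third peak, at 138302661 to 138302680, lies 22162 nt downstream of the listed Stag3 start and in no other gene. From that start to the gene end, Stag3 held 1 peak where 0.219 were expected (4.56-fold, adjusted exact Poisson p = 1). The other cohesin genes held 0 peaks: the kleisins Rec8 and Rad21l, and Smc1b, where 0.807 were expected.

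The sequence under the peak at chr5:138279981-138280000, which lies in both Stag3 and Gpc2, is shown because it lies between the listed starts of these genes. It was read from RefSeq's GRCm38.p6 window for Gpc2, on the minus strand, 5′ to 3′, and all of its bases are in the peak.
Stag3 and Gpc2 peak: GGCTCCCATTGTCTCCGCAG

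The synaptonemal complex genes held a peak in 2 of 8, and both peaks lay close to the start of the gene. The class shares give 2.14 of 8. Sycp1, the transverse filament protein that bridges the homologs (chromosome 3, 102818499 to 102936100, minus strand), held 1 peak at 102935701 to 102935720, 390 nt downstream of its listed start in a gene of 118 kb. The nearest other peak was 306 kb away, and 0.574 were expected (1.74-fold, interval 0.0441 to 9.71). Sycp2, an axis protein that forms the lateral element (chromosome 2, 178345295 to 178407776, minus strand), held 1 peak at 178407401 to 178407420, 248 nt downstream of its listed start, where 0.75 were expected. Its partner Sycp3 and the central element genes Syce1, Syce2, Syce3, Tex12 and Six6os1 held 0. These 6 genes have short bodies, from 4.12 kb for Tex12 to 37.8 kb for Six6os1, and at most 0.415 peaks were expected in any of them.

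Of the HORMA domain genes, Hormad2 (chromosome 11, 4345801 to 4441198, minus strand), which marks unsynapsed axes, held 1 peak at 4362981 to 4363000 where 0.786 were expected. The peak lay 78.2 kb into a gene of 95.4 kb. Hormad1 held 0 with 0.395 expected. Trip13, the ATPase that removes HORMA proteins from synapsed axes, held 0 with 0.279 expected. A peak was thus found in 1 of these 3 genes, where the class shares give 0.998.

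Genes of break formation had the highest share with a peak among the roles with more than 2 genes, 4 of 6 against 2.63 from the class shares. They also had the longest gene bodies, with a median of 94.9 kb. Their 5 peaks, 6.76 per Mb, stood against 6.57 expected from gene length and peak density. The mean peak number of each length class would give 4.96. Rec114 (chromosome 9, 58652856 to 58822706, minus strand), which with Mei4 forms an activator of SPO11, held 2 peaks where 1.70 were expected. The peak at 58704881 to 58704900 lay 36668 nt downstream of the listed start, and that at 58786041 to 58786060 lay 44492 nt upstream of it, within the longer gene body. Mei4 (chromosome 9, 81863670 to 82206007, plus strand) is the longest of the 39 at 342 kb and held 1 peak, at 82056181 to 82056200, where 2.29 were expected. Ankrd31 (chromosome 13, 96748289 to 96909794, plus strand), a partner of Rec114, held 1 at 96824501 to 96824520 where 1.78 were expected.

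Iho1 (chromosome 9, 108403492 to 108431841, minus strand), which anchors the break machinery to the axis, held 1 peak at 108409961 to 108409980 where 0.34 were expected. That peak also lies in 1700102P08Rik on the plus strand, so it cannot be given to either gene. Spo11 itself, the enzyme that cuts the DNA, held 0 peaks in 16.2 kb where 0.211 were expected. A peak at 172993921 to 172993940 lay 354 nt beyond the upper end of the Spo11 gene body on chromosome 2, in no annotated gene. It was the only peak within 3 kb outside any of the 39 gene bodies (1 of 39 genes), where 7.62% of protein-coding genes had such a peak. Prdm9, the histone methyltransferase that places the breaks, held 0 with 0.256 expected.

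Recombination genes held a peak in 4 of 10, against 3.78 from the class shares. Their 4 peaks stood against 6.27 expected from gene length and peak density, and 6.15 from the class means. Dmc1, the meiotic recombinase (chromosome 15, 79561497 to 79605159, minus strand), held 1 peak at 79567841 to 79567860, 37.3 kb into its 43.7 kb, where 0.786 were expected. Hsf2bp, which binds BRCA2 (chromosome 17, 31944769 to 32034895, minus strand), held 1 at 32034041 to 32034060, 458 nt downstream of its listed start, where 0.811 were expected. Hfm1, a helicase needed for crossovers (chromosome 5, 106840193 to 106926712, minus strand), held 1 at 106926261 to 106926280, where 0.779 were expected. This peak lay 380 nt upstream of the listed start of Hfm1, yet inside the annotated gene body.

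Spata22 (chromosome 11, 73326560 to 73346592, plus strand) encodes the partner of MEIOB on single-stranded DNA. It held 1 peak at 73329561 to 73329580 where 0.165 were expected (6.06-fold, interval 0.153 to 33.7, adjusted exact Poisson p = 1). The peak lay 170 nt upstream of the listed start, and the next peak was 156 kb away. From the listed start to the gene end, Spata22 held 0 peaks where 0.139 were expected. Meiob, Msh4, Msh5, Mlh3 and Rnf212 held 0, with 0.323 to 0.533 expected in each. Tex11, an X-linked crossover gene, held 0 in 221 kb where 1.55 were expected, and 75.5% of protein-coding genes in its length class held a peak. The interval of its fold reached 2.38, so a density equal to expectation was not excluded.

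The telomere attachment genes Majin, Terb1 and Terb2, whose products tie chromosome ends to the nuclear envelope, held 0 peaks in 123 kb. The class shares give 0.928 of these 3 genes with a peak. Most of the 3.01 peaks expected came from Majin, with 2.35, since its neighbourhood on chromosome 19 held 59 peaks per Mb and includes Malat1. For Majin the interval of the fold reached 1.57. Among the genes of transposon silencing, Tex15 (chromosome 8, 33516689 to 33592503) held 1 peak at 33552841 to 33552860 where 1.14 were expected. Mael held 0 with 0.262 expected, and the class shares give 0.732 of these 2 genes with a peak.

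Peak density near the meiotic genes ranged from 1 to 59 per Mb, with a median of 11 against 8 around all protein-coding genes. Neighbourhoods of the genes with a peak had a median of 9 per Mb and those of the genes without a median of 11. All 16 peaks were 20 nt wide, as were 95.7% of all peaks, so none belonged to the 4.29% of 40 nt or more. Small RNA genes lie inside 5 of the 39 genes, but no peak of the 39 lay within 1 kb of any.

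Peaks near gene starts were found in genes of several roles. RefSeq's promoter table lists a start and a strand for 32 of the 39 genes. A peak lay within 1 kb of a listed start, on either side, in 6 of these 32 (18.8%), against 11.3% of 17492 protein-coding genes with a listed start. The 6 were Stag3, Sycp1, Sycp2, Hsf2bp, Spata22 and Hfm1. The peak was downstream of the start in Sycp1, Sycp2 and Hsf2bp (3 of 32, against 7.64%). It was upstream in Stag3, Spata22 and Hfm1 (3 of 32, against 4.66%). The peak counted for Stag3 lies nearer to the listed start of Gpc2 than to that of Stag3, so it cannot be given to either gene. In the window from 250 nt before the start to 49 nt after it, Spata22 alone had a peak (1 of 32, against 3.33%). Whether these counts differ from the background shares was not tested.

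Among the 15 peaks in genes with a strand, 4 (26.7%) lay in the first 1 kb of the gene body and 0 in the last 1 kb. The shares over 6909 peaks in protein-coding genes with a strand were 20.6% and 4.63%. Those genes carried 122 peaks per Mb within 250 nt of the gene body start, 105 per Mb from 250 to 500 nt and 6.96 per Mb from 20000 to 50000 nt. The meiotic genes held 0 peaks in the 8 kb within 250 nt, 3 in the 8 kb from 250 to 500 nt, 1 in the 16 kb from 500 to 1000 nt and 0 in the 32 kb from 1000 to 2000 nt. The other 11 peaks lay 3.01 kb to 193 kb from the start of the gene body. Exons and introns were not told apart, since the table gives only starts and ends.

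**Figure D3:**
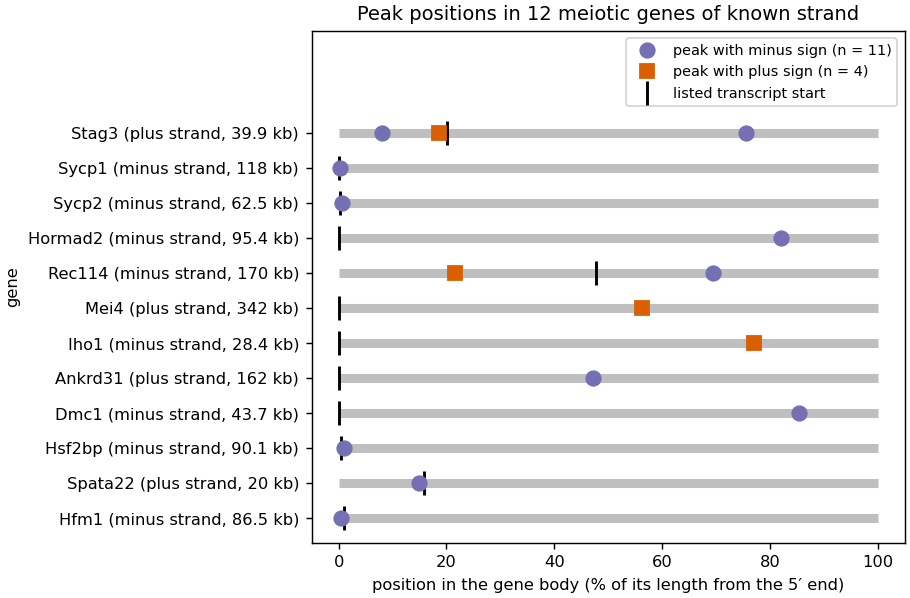
Positions of the 15 peaks in 12 meiotic genes of known strand, as a percent of gene body length from the 5′ end; circles have the minus sign and squares the plus sign, and a black tick marks the start listed in the promoter table. Peaks of Sycp1, Sycp2, Hsf2bp, Spata22 and Hfm1 and 1 peak of Stag3 sit beside the tick, and in Stag3, Rec114 and Spata22 the tick lies well inside the gene body.

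The Spata22 start window is shown because it holds a peak whole. It is chr11:73329491-73329740 on GRCm38.p6 from RefSeq, the 250 bases before the listed start on the plus strand, and capitals mark the bases of the peak.
Spata22: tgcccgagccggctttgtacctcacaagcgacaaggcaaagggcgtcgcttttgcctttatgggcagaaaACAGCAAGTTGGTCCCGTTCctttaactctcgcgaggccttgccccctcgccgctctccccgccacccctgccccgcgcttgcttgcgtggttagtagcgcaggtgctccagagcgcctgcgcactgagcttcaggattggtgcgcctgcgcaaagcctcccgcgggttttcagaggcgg

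The windows of Sycp1, Hsf2bp and Hfm1 are shown because a peak lies within 500 nt of each start and each holds 1 match to a motif linked to meiotic promoters. They are chr3:102936101-102936350, chr17:32034509-32034758 and chr5:106925891-106926140 on GRCm38.p6 from RefSeq, all on the minus strand, and capitals mark the match.
Sycp1: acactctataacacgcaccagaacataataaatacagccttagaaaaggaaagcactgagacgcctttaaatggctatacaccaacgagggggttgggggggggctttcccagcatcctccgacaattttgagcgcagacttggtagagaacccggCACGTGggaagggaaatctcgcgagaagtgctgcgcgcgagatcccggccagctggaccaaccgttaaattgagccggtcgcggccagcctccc
Hsf2bp: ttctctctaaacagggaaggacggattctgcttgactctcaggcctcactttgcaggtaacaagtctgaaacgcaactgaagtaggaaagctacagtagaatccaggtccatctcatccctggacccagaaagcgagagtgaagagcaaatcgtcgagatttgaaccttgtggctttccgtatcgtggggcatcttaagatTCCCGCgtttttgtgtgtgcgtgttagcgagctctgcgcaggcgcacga
Hfm1: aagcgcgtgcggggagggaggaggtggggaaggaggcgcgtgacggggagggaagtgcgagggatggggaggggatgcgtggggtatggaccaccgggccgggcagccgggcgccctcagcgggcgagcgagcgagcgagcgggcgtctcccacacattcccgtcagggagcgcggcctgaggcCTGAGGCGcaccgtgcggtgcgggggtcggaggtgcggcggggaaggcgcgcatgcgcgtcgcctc

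In Sycp1 the match is the E-box CACGTG, which MAX dimers bind. In Hsf2bp it is the E2F core GCGGGA read on the other strand, and in Hfm1 the STRA8 motif CNCCTCAG read on the other strand. Both strands of the 250 bases before each listed start were searched. The E-box was found in 10 of 32 meiotic genes (31.2%), against 7.61% of protein-coding genes. The E2F core was found in 16 of 32 (50.0%) against 24.2%, and the STRA8 motif in 6 of 32 (18.8%) against 7.83%. Of the 6 genes with a peak near the start, the E-box was found in Stag3 and Sycp1, the E2F core in Hsf2bp and Spata22, the STRA8 motif in Hfm1, and no motif in Sycp2. For each motif, most of the meiotic genes with a match had no peak near the start. A link between motifs and peaks was not tested. The motifs were chosen from prior knowledge of meiotic promoters with the peaks already known, and a match is a description of letters, not of binding.

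Base composition before the start was described in the same windows. The 6 genes with a peak near the start had a median GC content of 61.6% and a median of 19.5 CpG sites, and the other 26 had 59.0% and 12.5. Over protein-coding genes the medians were 64.0% and 19 for the 1973 with a peak near a start, and 54.4% and 8 for the 15519 without. Sycp2 with 7 CpG sites was the lowest of the 6, and Hfm1 with 34 the highest.

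The sign of the peaks did not follow the strand of the genes. Of the 15 peaks in meiotic genes with a strand, 9 had the sign of the gene and 6 the opposite sign. Over 6909 peaks in protein-coding genes the sign matched the strand in 47.4%. Minus-sign peaks made up 68.2% in genes on the plus strand and 62.7% in genes on the minus strand, and 61.3% of all peaks. Among the 39 genes 11 peaks had the minus sign and 5 the plus sign. All 4 peaks in the first 1 kb of the gene body had the minus sign. All 4 genes (Sycp1, Sycp2, Hsf2bp and Hfm1) lie on the minus strand, as do 23 of the 32 meiotic genes with a strand. Of all peaks in the first 1 kb of protein-coding genes, 72.1% had the minus sign. Which strand a sign stands for is not given in the sources used here, so no peak of a meiotic gene could be called sense or antisense.

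**Figure D4:**
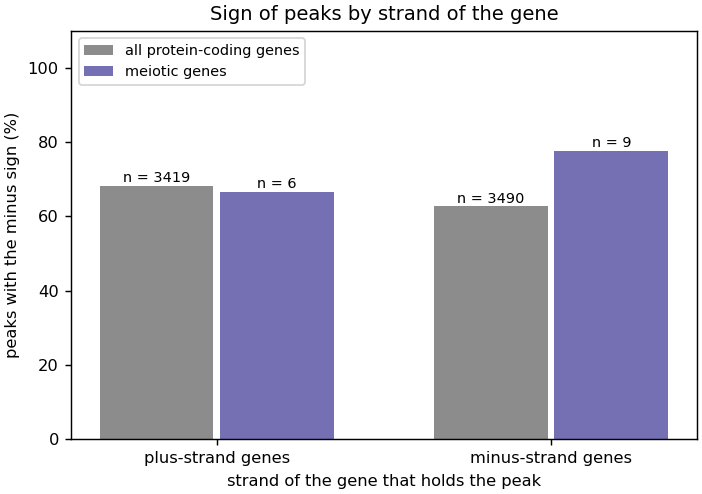
Percent of peaks with the minus sign (vertical axis) in genes on the plus and on the minus strand, for all protein-coding genes (grey) and for the meiotic genes (purple), with the number of peaks above each bar. Grey bars stand at 68.2% and 62.7%, so the sign was minus more often than plus on either strand; purple bars rest on 6 and 9 peaks.

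Peaks in other genes of the meiotic pathway were counted in the same way. A second list held 47 genes that regulate, check or complete meiotic recombination and synapsis, of which 45 matched the table. A peak was found in 10 of these 45 (22.2%, 95% Wilson interval 12.5 to 36.3), where the class shares give 13.2, and 0 passed the exact Poisson test. Meikin, a kinetochore protein of the meiotic divisions, and Sun1, which links telomeres to the cytoskeleton, held 2 peaks each, where 0.463 and 0.394 were expected. The checkpoint kinase genes Atm and Atr held 1 each, 1.5-fold and 0.871-fold of expectation. The interval overlaps that of the 39 genes, and the difference between the lists was not tested.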

How the data were processed

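The authors deposited 1 peak list with 4 columns (chromosome, start, end, sign) and no header, score, count or p-value. Bowtie 1.0.0, cutadapt 1.15 and mm10 are named in the processing notes of the submitters. The deposited name of the list points to merged replicates, duplicate removal and the Piranha caller; settings and the merging itself are not given in the sources used here. Coordinates are multiples of 20 nt and are printed 1-based.

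Peak midpoints were joined to gene bodies of RefSeq GRCm38.p6, the assembly of mm10, on either strand; 37 of the 39 genes matched by symbol and 2 by synonym. Strands and starts came from RefSeq's promoter table (32 genes). Expected numbers, the exact Poisson test and the Benjamini-Hochberg adjustment are described with the results. The test was tried on simulated peaks placed evenly at random along each chromosome, alone or with extra peaks planted in randomly picked genes. Real peaks were denser near gene starts, so the simulation does not show how the test performs on these data. Python 3.11.15, numpy 2.4.6, pandas 2.3.3, scipy 1.17.1 and statsmodels 0.14.6 were used. Members and lists were chosen with earlier results of these data known. Every member is named; in each other list the 4 genes with the most peaks are named (for cell markers, every gene). Peak sequences outside promoter windows were not analysed here.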

Additional observations from a re-analysis of the deposited data

How the results depend on the processing

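No paired analysis was possible because only 1 peak list of 1 group was analysed. No meiotic gene passed the exact Poisson test under any of 14 alternatives, and the lowest adjusted exact Poisson p was 0.264, for Stag3 with the chromosome density alone. With so few peaks per gene, few meiotic genes could have passed under any alternative, so this says little about robustness. The number of genes with a peak stayed between 10 and 14 and the number of peaks between 11 and 17, with 2 exceptions. With only peaks of 40 nt or wider both were 0, and with plus-sign peaks only both were 5. Beginning gene bodies at the listed start, chosen after seeing the data, left 11 genes with 11 peaks, against 12.8 genes from the class shares. Of 182 folds recomputed, 153 stayed on the same side of 1 and 29 crossed it, none past the threshold. The fold became 0 wherever a gene's peaks were removed: for all 13 genes with wide peaks only; for Sycp1, Sycp2, Hormad2, Ankrd31, Dmc1, Hsf2bp, Spata22 and Hfm1 with plus-sign peaks only; for Iho1, Mei4 and Tex15 with minus-sign peaks only; for Iho1 without shared peaks; and for Spata22 and Hfm1 from the listed start. Other folds crossed 1 for Rec114 (0.841, minus-sign peaks, from 1.18), Mei4 (1.11, plus-sign peaks, from 0.436), Ankrd31 (1.03, from 0.563, minus-sign peaks and chromosome density) and Tex15 (from 0.879 to 2.2 with plus-sign peaks, 1.9 with the chromosome density, 1.47 with a 1 Mb window, 1.45 with the density of genes of like length). With 1 peak in most genes, counting error limits every fold, and read depth is unknown.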

Other observations

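Genes of the stage before meiosis were counted in the same list. Of 12 genes of differentiating spermatogonia, 5 held a peak, where the class shares of gene length give 3.69, and of 13 genes of undifferentiated spermatogonia 8 did, where the class shares give 3.95. Kdm5b and Gfra1 held 3 peaks each, Kit, the sorted receptor, Dmrt1, Pax7 and Ret held 2 each, and Dnmt3a and Zbtb16 held 1 each; none passed the exact Poisson test (adjusted p = 1). Among Sertoli cell markers, 4 of 6 held a peak where the class shares give 1.27: Clu held 2, Gata4, Wt1 and Inha 1 each, and Sox9 and Amh 0. Among Leydig and interstitial markers, 5 of 6 did where the class shares give 1.32: Col3a1 and Nr2f2 held 2 each, Col1a2, Hsd3b1 and Cyp17a1 1 each, and Star 0. Of 5 germ cell markers, Kit and Ddx4 held a peak and Mael, Dazl and Tex101 did not, where the class shares give 1.46. Of 5 blood and endothelial markers, Vwf and Csf1r held a peak and Ptprc, Pecam1 and Cpa3 did not, where the class shares give 2.1. None of these markers passed the exact Poisson test; the lowest adjusted exact Poisson p was 0.5, for Clu. The part of other cells in the peaks of meiotic genes was not tested.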
